A study of Mus musculus with 36 samples.

Results

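The 9 genes described here, Bcl11b, Tbr1, Fezf2, Cux1, Cux2, Pou3f2, Rorb, Sox5 and Foxp2, encode transcription factors that mark or specify the layers of the cerebral cortex. They were named as a list, chosen with earlier results of these data known. Each was matched to 1 row of the RNA-seq table through its gene identifier, and they are 9 of 26709 genes in that table. All 9 passed the filter on low values, a mean of at least 10 normalised counts over the 18 RNA-seq samples. ATAC-seq peaks that overlapped these genes or lay within 50 kb of them, 103 of 58177 peaks, were examined as well, and 102 of the 103 passed the same filter on counts. Neurons were dissociated from pooled cortices of CD-1 mouse embryos at embryonic day 15, cultured for 7 days and silenced for 2 h with 100 µM AP-5, which blocks NMDA receptors, and 1 µM TTX, which blocks sodium channels. They then received 10 ng/ml BDNF, a neurotrophin that acts through the TrkB receptor, or 55 mM KCl, which depolarises the membrane, for 1, 6 or 10 h. Controls were left in AP-5 and TTX, so that they had been silenced for 3, 8 or 12 h in all. Each assay held 2 samples in each of the 9 groups, and each stimulated group was compared with all 6 controls of its assay. The study calls the samples of a group biological replicates. The labels do not say whether they came from separate cultures, and p-values measure the spread between these samples.

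Excitatory neurons of the cortex are born in sequence and settle in layers, the deep layers first and the upper layers on top of them. Deep-layer neurons send axons mainly to the brainstem, spinal cord and thalamus, and upper-layer neurons mainly to other cortical areas. Their identities depend on transcription factors that repress each other's programmes, and many of these factors stay on in mature neurons. Among the deep-layer factors, Fezf2 and Bcl11b (zinc fingers) specify neurons that project to subcerebral targets, Tbr1 (a T-box factor) specifies corticothalamic neurons, Sox5 (an SRY-box factor) times the birth of deep-layer types, and Foxp2 (a forkhead factor) marks the deepest layer. Among the factors of more superficial layers, Cux1 and Cux2 (cut homeodomain factors) and Pou3f2 (a POU factor) mark the upper layers, and Rorb (an orphan nuclear receptor) marks the layer that receives thalamic input. Bcl11b and Foxp2 are also abundant in striatal neurons, and Sox5, Bcl11b and Cux2 in some interneurons or progenitors.

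RNA libraries held 8.51 to 36.7 M reads (M, mega) (median 11.6) and ATAC libraries 1.24 to 6.24 M reads in peaks (median 3.55). The shallowest ATAC library was 1 of the 2 KCl 6 h libraries. Between 6 h or 10 h of further silencing and 1 h, limma called 0 genes (0% of 16209 tested, with 164 and 181 at an unadjusted p under 0.05), edgeR and DESeq2 also called 0, and none of the 9 genes was called. In ATAC-seq, edgeR called 0 peaks between 6 h and 1 h of control (0% of 56383, with 2580 at an unadjusted p under 0.05) and 20 between 10 h and 1 h (0.0355%), none of them among the 102 peaks at the 9 genes, of which 3 and 8 had an unadjusted p under 0.05. DESeq2 called 0 peaks in both. Markers of excitatory neurons (5 of 5 listed) and of neurons in general (4 of 4) were expressed. So were all 10 listed markers of GABAergic interneurons, all 10 of striatal projection neurons and all 10 of progenitors and radial glia, and in a bulk sample fewer cells of a type cannot be told apart from less RNA per cell. Of the 6 astrocyte markers 5 reached a mean of 10 normalised counts, as did 4 of 5 microglial and 1 of 3 endothelial markers. S100b (astrocytes), P2ry12 (microglia), Cldn5 and Flt1 (endothelium) stayed under 10 in each control library.

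Levels were compared between genes per length of transcript, as reads per kilobase divided by their sum in the library (TPM). In controls, Bcl11b was at 89.5 ± 4.09 TPM (SD, n = 6), Pou3f2 at 80.7 ± 7.61, Tbr1 at 50.3 ± 3.58, Fezf2 at 50.0 ± 2.03 and Cux2 at 34.6 ± 1.17. The lower levels were 17.5 ± 1.20 TPM for Cux1, 12.7 ± 1.03 for Sox5, 5.55 ± 0.235 for Foxp2 and 5.27 ± 0.614 for Rorb. The control ranges of neighbours in this order overlapped for Bcl11b and Pou3f2, for Tbr1 and Fezf2, and for Foxp2 and Rorb, and were apart for the other pairs. When the longest transcript was used in place of all exons, Foxp2 moved to 11.3 TPM and Sox5 to 21.2 TPM, the ranges of Foxp2 and Rorb no longer overlapped, and those of Pou3f2 and Tbr1 and of Cux1 and Sox5 did. The median of all tested genes was 19.5 TPM. Reads of an antisense gene could be counted with 2 of the 9 genes, since Gm16599 shares 394 bp of exon with Cux1 and Sox5os1 shares 1330 bp with Sox5, but both held a mean under 1 normalised count.

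BDNF lowered most of the 9 genes, whereas KCl moved them in both directions. A gene was called where limma's two-sided, Benjamini-Hochberg adjusted p over all genes was below 0.1. With BDNF at 1 h, 7 of the 9 genes were called, all of them lower, against 19% of all tested genes called lower and 21.3% called higher. At 6 h, 6 genes fell (background 21.1%) and 1 rose (22.1%), and at 10 h, 5 fell (19.5%) and 1 rose (21.1%). With KCl at 1 h, 4 genes fell (28.2%) and 1 rose (26.5%). At 6 h, 2 fell (33.1%) and 4 rose (33.4%), and at 10 h, 4 fell (28.2%) and 2 rose (29%). The median log2 fold change of the 9 genes was −0.32, −0.24 and −0.22 with BDNF at 1, 6 and 10 h, and −0.03, −0.01 and −0.12 with KCl, while the median of all tested genes stayed between −0.01 and 0.01 in each of these 6 comparisons. These 6 comparisons share their control samples. Since the 9 genes were chosen with earlier results of these data known, the shares of all genes describe the background and give no independent test.

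**Figure D1:**
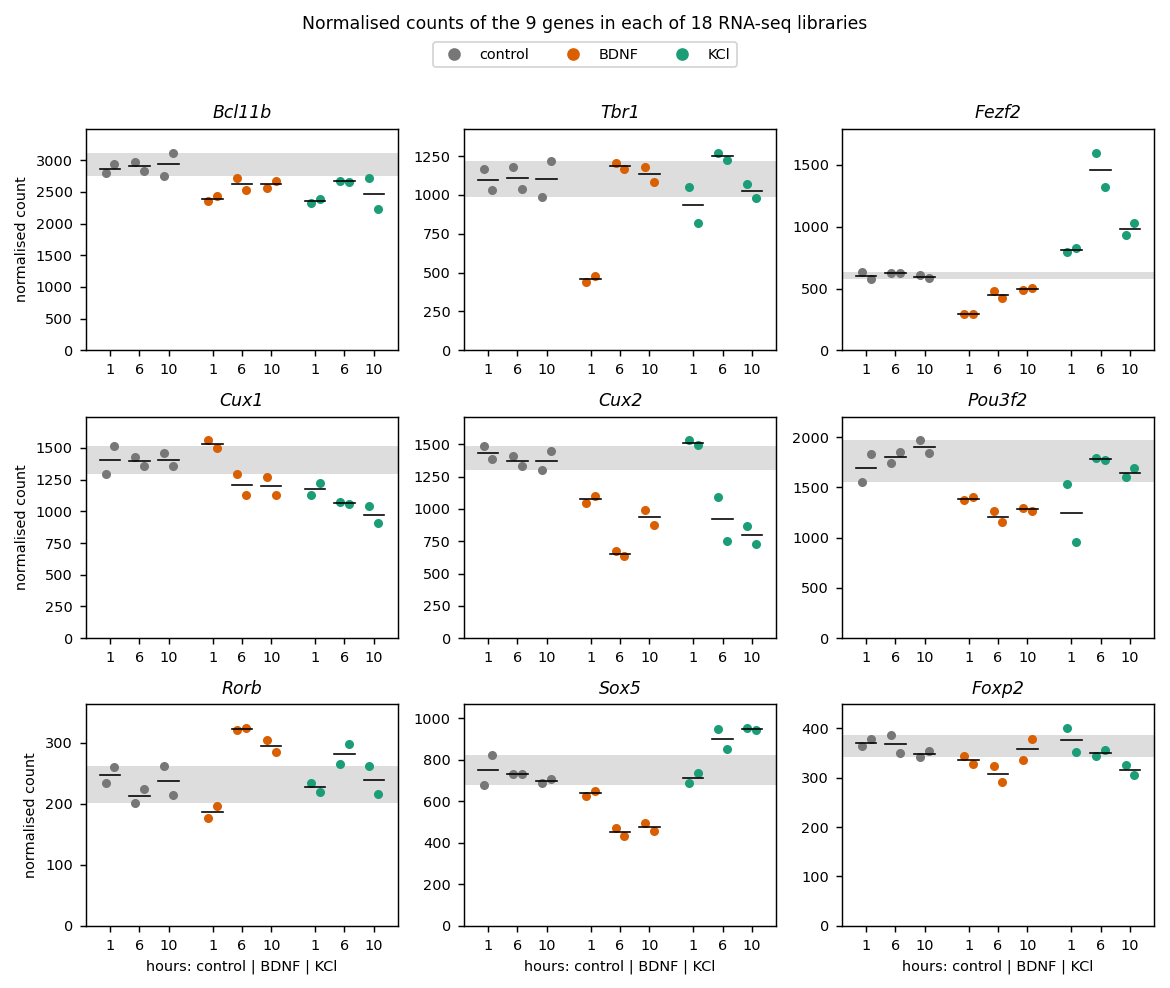
Normalised counts (vertical axes, from 0) of each gene in the 18 RNA-seq libraries, with 1 point for each library, a black bar for the mean of the 2 libraries of a group and a grey band for the range of the 6 controls. Tbr1 left the control range downwards at BDNF 1 h and was back within it at 6 h, and Fezf2 lay below it in all 6 BDNF libraries and above it in all 6 KCl libraries.

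Fezf2 moved in opposite directions with the 2 stimuli. The gene lies on the minus strand at chr14:12342094-12348189 (mm10). Its control libraries held 576 to 633 normalised counts (median 617). Libraries treated with BDNF held 294 and 291 after 1 h, 478 and 420 after 6 h, then 485 and 502 after 10 h. Libraries treated with KCl held 795 and 829 after 1 h, 1600 and 1322 after 6 h, then 931 and 1029 after 10 h. All BDNF libraries were therefore below and all KCl libraries above the 6 controls. The log2 fold change (of normalised count + 1, against controls) was −1.06 ± 0.08 (SE; adjusted p = 4.04e-10) with BDNF at 1 h, −0.44 at 6 h and −0.30 at 10 h, so that the fall was deepest at the first time. With KCl it was 0.42 at 1 h, 1.26 ± 0.08 at 6 h (adjusted p = 1.40e-11) and 0.69 at 10 h. Compared directly with limma, Fezf2 was 2.77-fold lower with BDNF than with KCl at 1 h, 3.24-fold lower at 6 h and 1.98-fold lower at 10 h (adjusted p = 7.13e-11, 8.29e-12 and 4.43e-08).

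Tbr1, on the plus strand at chr2:61802930-61814114, had a brief fall. Controls ranged from 988 to 1217 normalised counts (median 1101). The BDNF libraries held 438 and 479 at 1 h, then 1207 and 1164 after 6 h, then 1180 and 1085 after 10 h. Only the pair at 1 h lay outside the control range, 2.40-fold below the controls (log2 fold change −1.26 ± 0.09, adjusted p = 2.24e-10). With KCl the libraries held 1048 and 820 after 1 h, 1272 and 1226 after 6 h, then 1073 and 980 after 10 h. The differences from controls with KCl at 1 h (−0.25, adjusted p = 0.0276) and 6 h (0.18, adjusted p = 0.0794) passed the threshold but were small. The first rested on the second of its libraries, since without it the log2 fold change was −0.07, and −0.42 without the other. The second lost its call without either KCl 6 h library (0.16 and 0.21) or without 1 of 3 control libraries, namely the second of 1 h (0.17), the second of 6 h (0.17) and the first of 10 h (0.15). At 1 h Tbr1 was 2.02-fold lower with BDNF than with KCl (adjusted p = 1.74e-07), whereas the direct difference 6 h and 10 h after stimulation was −0.08 ± 0.11 and 0.14 ± 0.11 on the log2 scale and not called.

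Fezf2 and Tbr1 both fell more than 2-fold within 1 h of BDNF, and their promoters are shown for that reason. The 250 bases before the RefSeq start of each gene (GRCm38.p6) were searched on both strands. Both windows lie inside the gene spans given above, which begin further upstream, and bases before those outer starts were not part of this search. The 3 motifs sought were those of factors that neuronal stimulation induces or activates: TGANTCA (AP-1, the Fos and Jun factors, N being any base), TGACGTCA (the cyclic AMP response element, bound by CREB) and GCGNGGGCG (early growth response factors). No window printed here held matches to more than 1 of them. Matches are in capitals.
Fezf2 promoter, minus strand, chr14:12345866-12346115: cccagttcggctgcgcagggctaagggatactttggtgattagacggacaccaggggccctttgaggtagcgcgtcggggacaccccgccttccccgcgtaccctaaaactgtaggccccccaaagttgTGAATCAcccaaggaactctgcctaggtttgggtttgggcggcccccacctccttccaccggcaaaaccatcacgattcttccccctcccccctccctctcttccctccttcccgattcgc
Tbr1 promoter, plus strand, chr2:61804203-61804452: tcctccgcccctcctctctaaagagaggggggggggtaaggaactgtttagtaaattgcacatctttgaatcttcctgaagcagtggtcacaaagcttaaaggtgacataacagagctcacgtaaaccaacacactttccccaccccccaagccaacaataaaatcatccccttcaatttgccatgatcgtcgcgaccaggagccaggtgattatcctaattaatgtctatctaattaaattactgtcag
The Fezf2 window held 1 match to TGANTCA, with A as the base N, and the Tbr1 window held no match to any of the 3 motifs. Whether Fos and Jun factors bind the form with A was not tested. Among the 10 promoter entries that matched 8 of the 9 genes (Foxp2 had none in the table), 2 held an AP-1 match, Fezf2 and 1 of 2 Rorb entries, and 1 held an early growth response match, the other Rorb entry. Among all 32851 promoter entries 6.75% held an AP-1 match, 4.7% an early growth response match and 1.55% a cyclic AMP response element. ATAC-seq peaks in the promoters of Fezf2, Tbr1 and Bcl11b (2, 1 and 1 peaks) were not called in any of the 6 comparisons with controls.

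Bcl11b, whose mean level per length was the highest of the 9 in controls (with a range that overlapped that of Pou3f2), is on the minus strand at chr12:107910403-108003602. It changed little in size but in 1 direction. Its control libraries held 2744 to 3119 normalised counts (median 2880). With BDNF the libraries held 2357 and 2429 after 1 h, 2723 and 2532 after 6 h, then 2566 and 2671 after 10 h. Libraries treated with KCl held 2321 and 2387 after 1 h, 2673 and 2658 after 6 h, then 2711 and 2229 after 10 h. All 12 stimulated libraries were thus below the lowest control. The fall passed the test at BDNF 1 h (log2 fold change −0.28 ± 0.07, adjusted p = 0.00286), KCl 1 h (−0.30, adjusted p = 8.46e-04) and KCl 10 h (−0.24, adjusted p = 0.00577). The last of these was −0.10 and not called without the second KCl 10 h library, and −0.38 without the first. The direct difference between BDNF and KCl lay between −0.02 and 0.09 over the 3 times, each with an SE of 0.08.

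Sox5, on the minus strand at chr6:143828425-144781977, again differed between the stimuli, but later than Fezf2. Controls ranged from 680 to 824 normalised counts (median 718). Libraries treated with BDNF held 625 and 652 after 1 h, 470 and 432 after 6 h, then 495 and 456 after 10 h, all below the controls. The KCl libraries held 687 and 738 at 1 h, within the control range, and 948 and 850 after 6 h, then 952 and 943 after 10 h, above it. The log2 fold change with BDNF was −0.69 ± 0.08 at 6 h (adjusted p = 3.44e-07) and −0.61 at 10 h, and with KCl it was 0.31 at 6 h and 0.38 at 10 h (adjusted p = 0.00148 and 2.48e-04). The smaller difference at BDNF 1 h (−0.18, adjusted p = 0.0668) lost its call when either BDNF 1 h library (−0.15 and −0.22) or the second control library of 1 h (−0.15) was left out. Sox5 was 1.99-fold lower with BDNF than with KCl at both 6 h and 10 h (adjusted p = 1.80e-08 and 3.27e-08), and at 1 h the difference was −0.16 ± 0.09 and not called.

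Foxp2, on the plus strand at chr6:14901349-15441977, had no log2 fold change beyond 0.24 in size. Its control libraries held 343 to 386 normalised counts (median 359). With BDNF the libraries held 344 and 327 after 1 h, 324 and 291 after 6 h, then 336 and 379 after 10 h. With KCl the libraries held 400 and 352 after 1 h, 343 and 355 after 6 h, then 326 and 305 after 10 h. It fell by 0.24 on the log2 scale with BDNF at 6 h (adjusted p = 0.0307) and by 0.20 with KCl at 10 h (adjusted p = 0.0524). Both lost their call without the second library of the group (−0.16 and −0.15) and kept it without the first (−0.31 and −0.25). None of the 3 direct differences between BDNF and KCl was called.

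**Figure D2:**
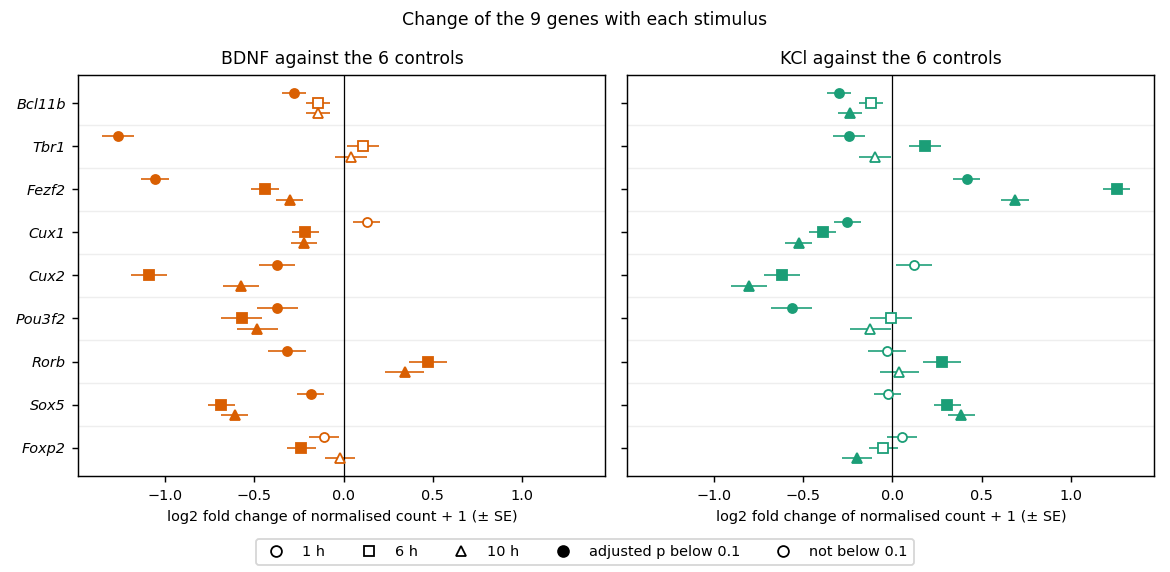
Log2 fold change of normalised count + 1 against the 6 controls (horizontal axes, with SE bars) for each gene, with BDNF on the left and KCl on the right, symbols for the 3 times and filled symbols for an adjusted p below 0.1. Fezf2 spans −1.06 to 1.26, Cux2 lies left of 0 with both stimuli at 6 h and 10 h, and the symbols of Bcl11b and Foxp2 stay within 0.30 of 0.

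Among the upper-layer factors, Cux2 fell with both stimuli. The gene is on the minus strand at chr5:121856366-122050102. Controls ranged from 1298 to 1486 normalised counts (median 1398). Libraries treated with BDNF held 1048 and 1100 after 1 h, 671 and 638 after 6 h, then 996 and 875 after 10 h. Libraries treated with KCl held 1531 and 1497 after 1 h, 1091 and 750 after 6 h, then 870 and 729 after 10 h. BDNF libraries were below the controls at each time and lowest at 6 h, 2.13-fold below the controls (log2 fold change −1.09 ± 0.10, adjusted p = 4.10e-08). KCl libraries started slightly above the controls at 1 h (0.12, adjusted p = 0.339) and were 1.54-fold below them at 6 h and 1.75-fold below at 10 h (adjusted p = 2.01e-05 and 1.37e-06). The fall at KCl 6 h was −0.62 with both libraries and −0.35, still called, without the second. Cux2 was lower with BDNF than with KCl at 1 h (−0.50 ± 0.12, adjusted p = 0.00317) and 6 h (−0.47, adjusted p = 0.00335). The 6 h difference moved to −0.20 and was not called without the first KCl 6 h library, and was −0.74 without the second.

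Cux1, a paralogue of Cux2 on the minus strand at chr5:136248135-136567490, differed from Cux2 in being lowest with KCl. Its control libraries held 1297 to 1512 normalised counts (median 1394). With BDNF the libraries held 1560 and 1501 after 1 h, 1292 and 1126 after 6 h, then 1269 and 1133 after 10 h. With KCl the libraries held 1127 and 1223 after 1 h, 1076 and 1057 after 6 h, then 1040 and 908 after 10 h, all below the controls. With KCl the log2 fold change grew in size from −0.25 at 1 h through −0.39 at 6 h to −0.53 ± 0.07 at 10 h (adjusted p = 0.00746, 1.02e-04 and 5.11e-06). Without the first KCl 1 h library the value at 1 h was −0.19 and not called. With BDNF it was −0.21 at 6 h and −0.22 at 10 h (adjusted p = 0.0284 and 0.0256), and each lost its call without its second library (−0.12 and −0.14). Cux1 was higher with BDNF than with KCl at 1 h (0.38 ± 0.09, adjusted p = 0.00211) and at 10 h (0.30, adjusted p = 0.0117), the latter not called without the first BDNF 10 h library (0.22) or the second KCl 10 h library (0.20).

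Pou3f2, on the minus strand at chr4:22482780-22488366, fell with BDNF throughout. Controls ranged from 1549 to 1967 normalised counts (median 1836). Libraries treated with BDNF held 1372 and 1401 after 1 h, 1263 and 1152 after 6 h, then 1299 and 1265 after 10 h, all below the controls. Libraries treated with KCl held 1530 and 958 after 1 h, 1790 and 1770 after 6 h, then 1601 and 1688 after 10 h. With BDNF the log2 fold change was −0.37 at 1 h (adjusted p = 0.0199), −0.57 ± 0.12 at 6 h (adjusted p = 8.80e-04) and −0.48 at 10 h (adjusted p = 0.00402). The value at 1 h was −0.35 and not called without the first BDNF 1 h library. With KCl it was −0.57 at 1 h (adjusted p = 5.66e-04), a value set by 2 libraries far apart (−0.90 without the first and −0.23 without the second, both called), and was not called later. Pou3f2 was lower with BDNF than with KCl at 6 h (−0.56 ± 0.14, adjusted p = 0.00309). The direct difference at 10 h (−0.36, adjusted p = 0.0563) lost its call without any 1 of its 4 libraries, at −0.40 to −0.32. The direct difference at 1 h was 0.20 and not called, but 0.53 and called (adjusted p = 7.05e-04) without the first KCl 1 h library and −0.14 without the second.

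Rorb changed sign with time after BDNF. It lies on the minus strand at chr19:18930605-19111196. Its control libraries held 202 to 262 normalised counts (median 230). The BDNF libraries held 176 and 196 at 1 h, below the controls, then 321 and 324 after 6 h, then 304 and 285 after 10 h, above them. With KCl the libraries held 235 and 219 after 1 h, 264 and 299 after 6 h, then 262 and 217 after 10 h, and only those of 6 h lay outside the control range. The log2 fold change with BDNF was −0.32 ± 0.11 at 1 h (adjusted p = 0.0269), 0.47 at 6 h (adjusted p = 0.00153) and 0.34 at 10 h (adjusted p = 0.0185). It was −0.24 at 1 h and 0.29 at 10 h, not called, without the first library of each group. With KCl it was 0.28 at 6 h (adjusted p = 0.0306), or 0.19 and not called without the second library. Rorb was lower with BDNF than with KCl at 1 h (−0.28, adjusted p = 0.0985) and higher at 10 h (0.30, adjusted p = 0.0747). The first lost its call without any 1 of its 4 libraries (−0.36 to −0.21) and the second without 3 of its 4 libraries (0.26, 0.35 and, without the second KCl 10 h library, 0.17).

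The direct comparison of the stimuli called 5 of the 9 genes at 1 h, 4 at 6 h and 5 at 10 h, against 42.8%, 57.3% and 45% of all genes tested. Of those called, 4, 4 and 3 were lower with BDNF. Fezf2 was called at all 3 times, and 2 others were called at 6 h and 10 h (Sox5 and Pou3f2).

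Genes with a like pattern were sought for the 3 genes with a called log2 fold change of at least 1 in size, by the root mean square difference over the 6 log2 fold changes against controls, among 11595 other genes with a mean of at least 100 normalised counts. Nearest to Tbr1 were Isl1 (a LIM homeodomain factor of striatal and motor neurons) at a difference of 0.17 and Cdk20 (a cyclin-dependent kinase) at 0.20. Isl1 had a log2 fold change of −1.28 with BDNF at 1 h and 0.01 at 6 h. Nearest to Cux2 were Spats2l at 0.12 and Cmpk2 (a mitochondrial nucleotide kinase) at 0.13. Nearest to Fezf2 were 1600020E01Rik at 0.28 and Sostdc1 (a secreted inhibitor of BMP signalling) at 0.28, the latter with log2 fold changes at 1 h of −0.71 (BDNF) and 0.82 (KCl).

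A wider list of 32 regulators of cortical layers and projection neurons, all expressed, was described in the same way. With BDNF at 1, 6 and 10 h, 15, 16 and 14 of the 32 fell and 6, 5 and 3 rose. With KCl, 6, 11 and 16 fell and 18, 13 and 10 rose. Among all genes tested, 19%, 21.1% and 19.5% were called lower and 21.3%, 22.1% and 21.1% higher with BDNF, and 28.2%, 33.1% and 28.2% lower and 26.5%, 33.4% and 29% higher with KCl, so that several of these counts, such as 11 of 32 lower at KCl 6 h, lay near the background. The median log2 fold change of the list was −0.17 with BDNF and 0.29 with KCl at 1 h. Nr4a2, an orphan nuclear receptor and immediate early gene that also marks deep-layer neurons, rose most, from 202 to 228 normalised counts in controls to 5703 and 4874 with KCl at 1 h (log2 fold change 4.63 ± 0.08, adjusted p = 4.33e-21). Bhlhe22, a basic helix-loop-helix factor of area identity, held 3112 to 3760 in controls and 1189 and 1122 with BDNF at 1 h (−1.56). Mef2c, an activity-regulated MADS-box factor, held 4295 to 4712 in controls and 1914 and 1753 with BDNF at 6 h (−1.30). Zbtb18, a zinc-finger repressor, held 5632 to 5935 in controls and 2921 and 2903 with BDNF at 1 h (−0.98). Otx1, a homeodomain factor of deep-layer neurons, was at −0.23 with BDNF at 1 h, not called, and rose with KCl at 1 h (1.27). Pou3f1, a paralogue of Pou3f2, rose with BDNF at 1 h (1.17), where Pou3f2 fell. Zbtb18, Otx1 and Pou3f1 were chosen for mention after their values were seen.

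Non-regulatory marker genes of the layers gave mixed counts, many of them near the shares of all genes called, which were 19% to 22.1% in each direction with BDNF and 26.5% to 33.4% with KCl. Of 10 upper-layer markers, 2, 5 and 6 fell and 1, 2 and 2 rose with BDNF at 1, 6 and 10 h, and 1, 5 and 3 fell and 4, 2 and 2 rose with KCl. The largest changes were those of Rasgrf2 (a Ras exchange factor), from 299 to 345 in controls to 91.9 and 76.9 with BDNF at 6 h, Lamp5 (a membrane protein of superficial neurons), from 6.86 to 13.2 to 22.5 and 19.2, and Cntn6 (a contactin), from 53.8 to 82.3 to 28.8 and 31.1. Lamp5 lay near the floor, with a control median of 8.55, under the 10 that the filter asked of the mean over all 18 samples. A list of 13 genes was taken as deep-layer markers, and it included Reln, whose place in the list was not examined. Of the 11 tested, 3, 4 and 4 fell and 2, 3 and 3 rose with BDNF, and 0, 4 and 2 fell and 6, 5 and 4 rose with KCl. Here the largest were Ctgf (a matricellular protein of the subplate), from 79.8 to 207 in controls to 269 and 457 with KCl at 6 h, Nxph3 (a neurexophilin), from 190 to 252 to 92.7 and 79.5 with BDNF at 10 h, and Hs3st4 (a heparan sulfate sulfotransferase), from 336 to 391 to 171 and 192 with KCl at 10 h. Neither list moved in 1 direction in all comparisons.

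Markers of other cell types moved with the stimuli too. The summed level of the 10 interneuron markers was 13830 to 16750 normalised counts in controls, 19030 to 19520 with BDNF at 1 h and 23380 to 23400 with KCl at 6 h, and 5 and 8 of the 10 rose in these comparisons (against 21.3% and 33.4% of all genes) while 1 and 2 fell (19% and 33.1%). The 10 striatal markers, which include Isl1, summed to 1267 to 1574 in controls, 1362 to 1364 with BDNF at 1 h and 1934 to 2271 with KCl at 6 h. Of these 10, 3 rose and 3 fell with BDNF at 1 h (21.3% and 19% of all genes). With KCl at 6 h, 5 rose and 5 fell (33.4% and 33.1%), so the higher sum did not hold for the list as a whole. The 6 astrocyte markers summed to 10030 to 12930 in controls and 7736 to 8937 with KCl at 6 h, where 5 of 5 tested fell (33.1%). Markers of the oligodendrocyte lineage (6 of 6 expressed) summed to 5838 to 6334 in controls and 4304 to 4863 with KCl at 1 h, then 6924 to 7295 at 6 h and 6639 to 7303 at 10 h. Of these 6, 0 rose and 3 fell with KCl at 1 h (26.5% and 28.2% of all genes). At 6 h, 2 rose and 3 fell (33.4% and 33.1%), and at 10 h 1 rose and 1 fell (29% and 28.2%). The 10 progenitor markers summed to 18980 to 23880 in controls and 17530 to 19160 with KCl at 10 h, where 4 fell (28.2%) and 0 rose (29%). The 5 microglial markers summed to 86.9 to 110 in controls and the 3 endothelial markers to 12.1 to 18.6. The 4 general neuronal markers summed to 39920 to 44310 in controls. The 5 excitatory markers summed to 5701 to 6395 in controls and 4852 to 4954 with BDNF at 1 h, where 2 fell (19% of all genes) and 2 rose (21.3%). With KCl at 6 h they summed to 7518 to 7565, above each control, where 4 rose (33.4%) and 0 fell, limma having called the remaining one in neither direction. None of these defining markers was at 0. The part of cell composition in the changes of the 9 genes was not tested.

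Open chromatin at the 9 genes was read from ATAC-seq peaks, whose counts were scaled by LOESS and tested with edgeR's quasi-likelihood test at the same threshold over 56383 peaks. Of the 103 peaks, 16 were in promoters (1000 bp before to 100 bp after a start site), 59 were intronic, 3 exonic, 12 upstream and 13 downstream, and 27 lay nearer to the start of another coding gene. Sox5 held 27 of them, Foxp2 20, Cux1 14, Cux2 10, Bcl11b and Rorb 9 each, Fezf2 6, Pou3f2 5 and Tbr1 3. With BDNF, 5 peaks gained and 7 lost accessibility at 1 h (against 11.2% and 5.2% of all peaks), 5 and 1 at 6 h (7.33% and 2.07%) and 2 and 2 at 10 h (6.23% and 2.04%). With KCl, 6 gained and 1 lost at 1 h (4.88% and 3.08%), 7 and 0 at 6 h (4.65% and 2.09%) and 5 and 2 at 10 h (4.98% and 2.09%). The direct comparison of BDNF with KCl called 13, 2 and 2 peaks at 1, 6 and 10 h (14.1%, 3.38% and 1.88% of all peaks). For the 0 losses with KCl at 6 h, 5 peaks were lower at an unadjusted p under 0.05, and DESeq2 also called 0. Without any 1 library, the totals ran from 8 to 15, 1 to 5 and 1 to 5 with BDNF at the 3 times, 0 to 9, 2 to 9 and 2 to 8 with KCl, and 3 to 8, 0 to 1 and 0 to 2 in the direct comparison. No peak of Tbr1 or Fezf2 was called against controls, so that the 2 genes whose transcripts fell most within 1 h had no peak called against controls in this window. A peak downstream of Tbr1 (chr2:61815078-61815952) was higher with BDNF than with KCl at 1 h (0.66 ± 0.27, adjusted p = 0.099), but in 4 of 4 fits without 1 of its libraries it was not called (0.47 to 0.83).

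**Figure D3:**
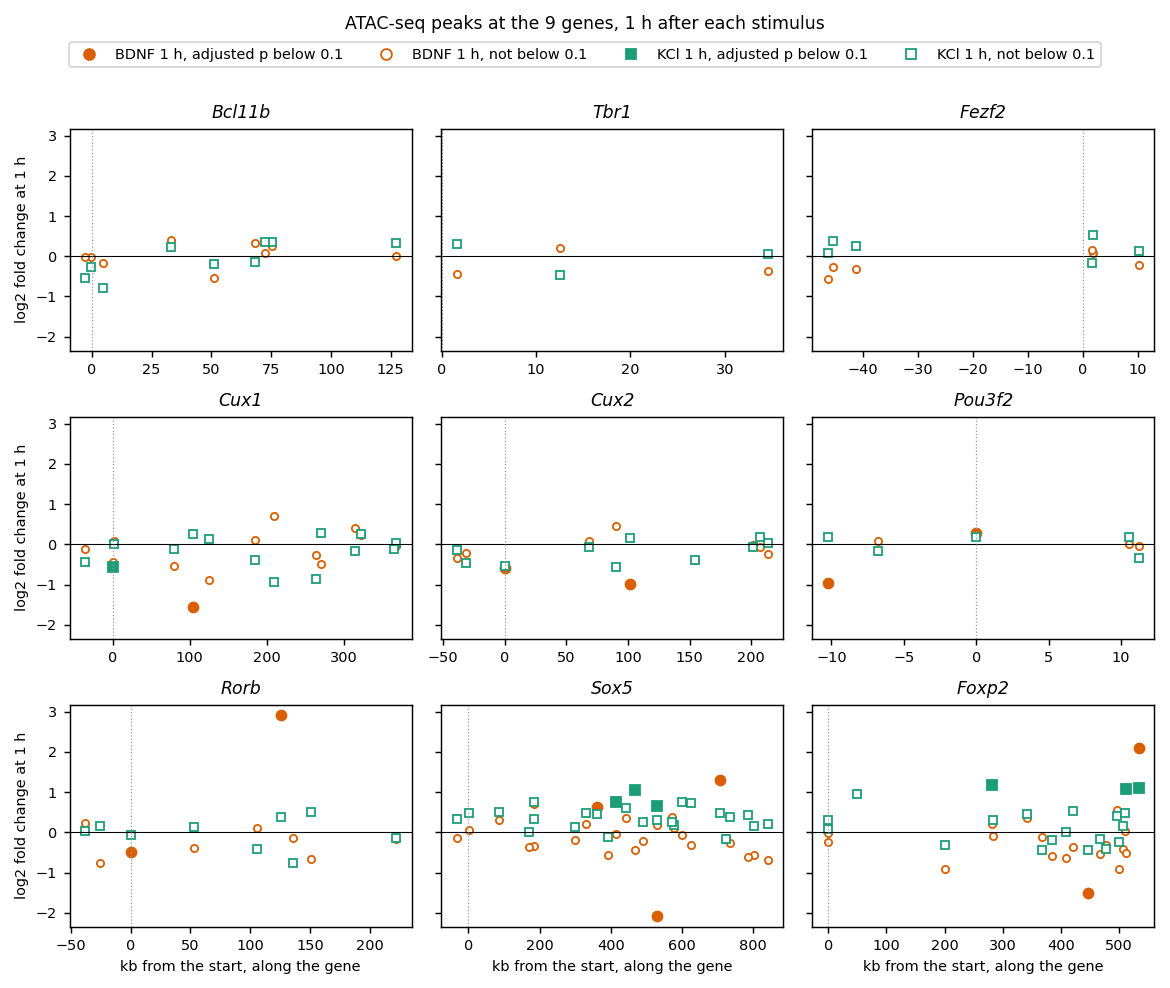
Log2 fold change of each peak 1 h after BDNF (circles) or KCl (squares) against its distance in kb from the start of the gene, counted along the direction of transcription, with filled symbols for an adjusted p below 0.1. The 2 highest filled circles are the intronic peaks of Rorb (2.92) and Foxp2 (2.10), and the panels of Tbr1, Fezf2 and Bcl11b hold no filled symbol.

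An intronic peak of Rorb and one of Foxp2 had the largest gains. Their control means, 6.88 and 9.22 scaled counts, were under the 10 that the filter asked of the mean over all samples. A peak this low in controls was tested only if its stimulated libraries were higher, so the filter favoured gains among such peaks. The central 300 bases of both peaks are shown (mm10, plus strand) with matches to the AP-1 motif in capitals.
Rorb intronic peak, chr19:18984959-18985258: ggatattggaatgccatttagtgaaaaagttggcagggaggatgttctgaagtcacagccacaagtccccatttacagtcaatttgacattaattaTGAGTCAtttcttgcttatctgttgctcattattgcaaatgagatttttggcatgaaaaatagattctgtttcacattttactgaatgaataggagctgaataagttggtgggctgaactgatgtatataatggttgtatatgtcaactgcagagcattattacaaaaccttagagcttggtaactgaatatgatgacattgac
Foxp2 intronic peak, chr6:15435454-15435753: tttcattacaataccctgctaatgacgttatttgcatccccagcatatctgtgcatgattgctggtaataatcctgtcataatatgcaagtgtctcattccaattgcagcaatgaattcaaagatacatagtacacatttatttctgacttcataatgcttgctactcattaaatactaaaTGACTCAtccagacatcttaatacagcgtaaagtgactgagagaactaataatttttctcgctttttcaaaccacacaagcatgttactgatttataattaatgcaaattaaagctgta
Each window held 1 match to TGANTCA and none to the other 2 motifs. The base N was G in the Rorb window and C in the Foxp2 window, whereas it was A in the Fezf2 promoter. Of the central windows of 102 peaks at the 9 genes, 10 held an AP-1 match (9.8%), against 16.3% of all 56383 tested peaks. Among peaks called higher with BDNF at 1 h the motif was in 3 of 5 at the 9 genes and in 65.7% of all such peaks, and among those called lower in 0 of 7 and 4.3%. The third of the 3 gained peaks with a match was intronic in Sox5, with 2 matches.

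The Rorb peak (chr19:18984873-18985344, 126 kb into the gene) held 4.84 to 8.37 LOESS-scaled counts in the 6 controls (median 7.20). It held 62.8 and 43.6 with BDNF after 1 h, 44.6 and 50.5 after 6 h, then 54.1 and 38.0 after 10 h, all above the controls. With KCl it held 12.0 and 6.77 after 1 h, 39.5 and 9.98 after 6 h, then 24.2 and 22.7 after 10 h. The log2 fold change with BDNF was 2.92 ± 0.35 at 1 h (adjusted p = 9.68e-12), 2.77 at 6 h and 2.70 at 10 h. With KCl it was 0.38 at 1 h and not called, 2.05 at 6 h and 1.74 at 10 h (adjusted p = 0.0024). The KCl 6 h value rested on the first of its libraries (0.51 without it), the second being the shallowest ATAC library. At 1 h the peak was higher with BDNF than with KCl by 2.53 ± 0.44 (adjusted p = 1.10e-05), and the direct differences at 6 h and 10 h (0.72 and 0.96) were not called. The Rorb transcript was lower than in controls at BDNF 1 h, when the peak was already higher, and was higher at 6 h and 10 h. The Rorb promoter peak (chr19:19110505-19111658) held 143 to 217 scaled counts in controls and 114 and 122 with BDNF at 1 h (−0.49 ± 0.15, adjusted p = 0.0121), or −0.44 and not called without the first of these.

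**Figure D4:**
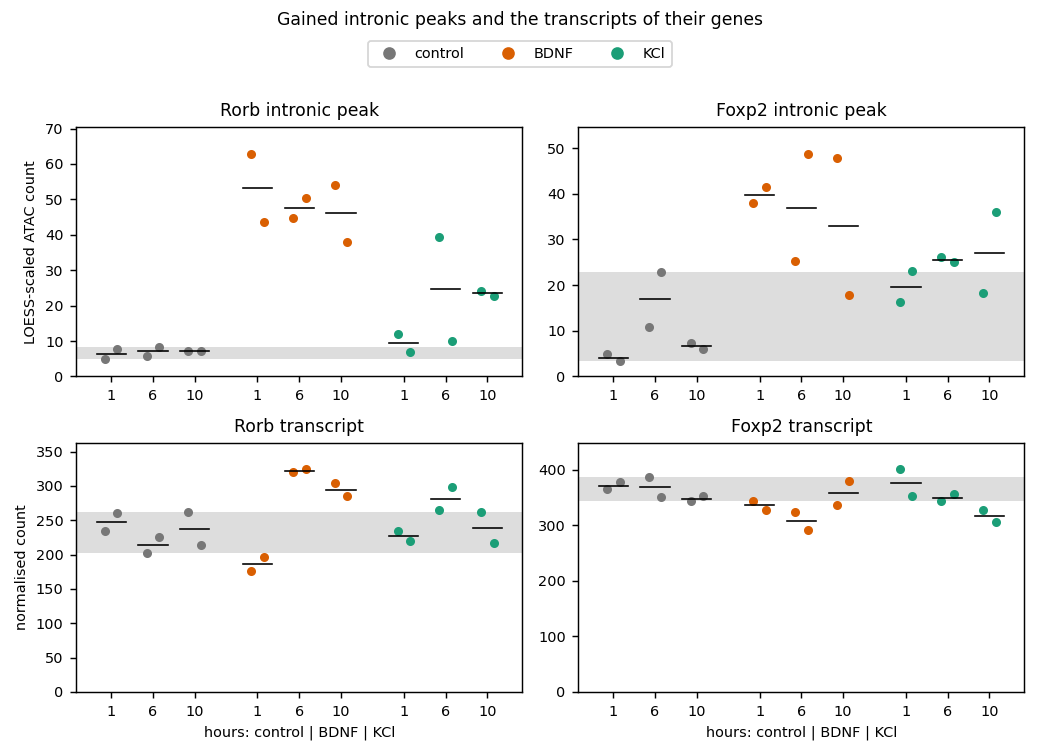
LOESS-scaled ATAC counts of the intronic Rorb and Foxp2 peaks (upper row) and normalised counts of the 2 transcripts (lower row) in each library, with group means as black bars and the control range in grey. The Rorb peak was at 38.0 or more in all 6 BDNF libraries against 8.37 or less in controls, while the Rorb transcript was below its control range at BDNF 1 h and above it at 6 h and 10 h.

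The Foxp2 peak (chr6:15435402-15435804) lies 534 kb from the annotated start of Foxp2, near its 3′ end, and nearer to the start of Mdfic. It held 3.43 to 22.9 scaled counts in controls (median 6.68), where the second control library of 6 h was the highest. It held 37.9 and 41.5 with BDNF after 1 h, 25.3 and 48.7 after 6 h, then 47.9 and 17.9 after 10 h. With KCl it held 16.2 and 23.1 after 1 h, 26.2 and 25.0 after 6 h, then 18.2 and 36.0 after 10 h. The log2 fold change with BDNF was 2.10 ± 0.38 at 1 h (adjusted p = 4.02e-06), 2.02 at 6 h and 1.78 at 10 h, and with KCl 1.10, 1.47 and 1.55. The gain at BDNF 1 h was called without any 1 library. The later gains lost their call without 1 stimulated library, at 1.44 for BDNF 6 h (without the second), 0.94 for BDNF 10 h (the first), 1.42 for KCl 6 h (the first) and 0.97 for KCl 10 h (the second). That at KCl 1 h (adjusted p = 0.0956) lost it without either KCl 1 h library (1.31 and 0.81) or without 1 of 5 control libraries, all but the second of 6 h, at 0.90 to 1.15. Against the 6 h controls alone the 6 h values were 1.17 for BDNF and 0.62 for KCl, not called. BDNF and KCl did not differ by a called amount at this peak (0.99 ± 0.44 at 1 h). The Foxp2 transcript was called only as lower, at BDNF 6 h and KCl 10 h.

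Against controls, peaks of the other genes moved less or with less support. An intronic Sox5 peak (chr6:144252301-144252488) held 5.43 to 25.2 scaled counts in controls and 4.04 and 4.68 with BDNF at 1 h (−2.09 ± 0.58, adjusted p = 0.00517), but −0.80 and not called under TMM scaling. With KCl at 1 h this peak held 19.0 and 19.3. In edgeR's direct comparison at 1 h it was lower with BDNF than with KCl (−2.39 ± 0.63, adjusted p = 0.00606). Without 1 library that difference was −2.54 to −2.28. For Cux1 the largest called change was at an intronic peak (chr5:136382339-136382547), from 8.62 to 21.9 in controls to 3.76 and 4.61 with KCl at 10 h (−1.77, adjusted p = 0.0697), and it was not called under TMM scaling (−1.22). This peak lies nearer to the start of Sh2b2. It also lost its call without either KCl 10 h library (−1.59 and −1.88), without the second control library of 1 h (−1.58) or without the first of 10 h (−1.65). A Bcl11b intronic peak (chr12:107928048-107928808) held 33.7 to 68.5 in controls and 94.0 and 80.8 with KCl at 10 h (0.65, adjusted p = 0.0661), not called without either KCl 10 h library (0.54 and 0.76) or without either control library of 10 h (0.57 and 0.55). A peak 4.63 kb downstream of Pou3f2 (chr4:22477523-22478150) held 33.1 to 49.9 in controls and 66.0 and 81.3 with KCl at 6 h (0.82, adjusted p = 0.0535), not called without either KCl 6 h library (1.00 and 0.69). Called falls with BDNF at 1 h that overlapped the control range were seen at a peak upstream of Pou3f2, with 19.6 and 11.6 scaled counts against 15.9 to 38.8 in controls, and at an intronic peak of Cux2, with 12.2 and 20.9 against 20.3 to 39.0. The Pou3f2 value (−0.96, adjusted p = 0.086) was not called without either BDNF 1 h library (−1.35 and −0.59), without the first control library of 1 h (−0.89) or without either of 6 h (−0.89 and −0.94). The Cux2 value (−0.98, adjusted p = 0.0458) was −0.66 and not called without the first BDNF 1 h library.

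Of 96 tests, 16 promoter peaks in 6 comparisons with controls, 4 were called (4.17%, against 9.31% of the same tests over all peaks), and log2 fold changes ranged from −0.92 to 0.63 with a median of −0.03. Besides the Rorb promoter, these were the Pou3f2 promoter with BDNF at 1 h, from 487 to 581 scaled counts in controls to 614 and 656 (0.29 ± 0.08, adjusted p = 0.0086), where the transcript fell. Next was a Cux2 promoter with BDNF at 1 h, from 50.0 to 98.5 in controls to 67.0 and 49.1 (−0.58, adjusted p = 0.0653). The last was a Cux1 promoter with KCl at 1 h, from 82.4 to 121 to 74.4 and 57.7 (−0.55, adjusted p = 0.0716). The Pou3f2 value was 0.18 and not called under TMM scaling, and 0.24 and not called without the second BDNF 1 h library. The Cux2 value was −0.36 and not called without the second BDNF 1 h library, −0.54 without the first control library of 1 h and −0.55 without the first of 6 h. The Cux1 value was −0.73 and −0.36 without the first and second KCl 1 h library and −0.54 to −0.49 without the first control library of any time, each not called.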

How the data were processed

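RNA-seq and ATAC-seq were measured in 18 samples each, 2 for each of 9 groups taken from the sample labels. The authors mapped RNA reads to mm10 with TopHat2 and divided gene read counts by DESeq2 size factors, so the deposited RNA values are a normalised signal. All values came out as whole reads (100% in each column, within 0.01), which gave the depth of each library. The authors aligned ATAC reads with Bowtie2, called peaks with MACS2 and made a consensus set with DiffBind. The deposited ATAC values are raw counts. Gene names came from the authors' deposited gene table (24184) and, for others, the GENCODE annotation (26203 of 26709 in all). The fold changes, p-values and means of the authors' own comparisons in the gene and peak tables were not used. Of the sample columns, 0 could not be mapped to a group.

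RNA values were tested as log2(value + 1) with limma 3.58.1 (trend, robust) and ATAC counts with edgeR 4.0.16 (glmQLFit robust, LOESS offsets with span 0.3), both two-sided, with 7 levels (3 times of each stimulus, and all controls). Features with a mean of at least 10 were tested (16209 genes, 56383 peaks), and a feature was called below an adjusted p (Benjamini-Hochberg) of 0.1. Fold changes on the log2(value + 1) scale understate changes of weakly expressed genes. The recovered whole reads were tested with edgeR and DESeq2 1.42.0 as alternatives. Other alternatives were pseudocounts of 0.5 and 5, other scalings, no filter, controls of the same time, a stricter threshold of 0.01, a replicate block and leaving out each library. Scripts were tested on simulated data. The members and lists were chosen with earlier results of these data known. The text names all 9 genes, the 2 nearest patterns to each gene changed at least 2-fold, the 3 most changed genes of each wider list with both libraries outside the control range, called promoter peaks and, for each gene, the most changed called peak with both libraries outside the control range; 2 further peaks, of Pou3f2 and Cux2, were named after their values were seen. Library order within a group (first, second) follows the letters A and B of the RNA columns and the column order for ATAC, and was not used to pair samples in the main fits. Depth limits the low ATAC peaks most, and replicates differed by more than sampling noise in each pair (chi-square per degree of freedom 2.44 to 39.6 for RNA and 2.06 to 2.58 for ATAC). The highest RNA value, 39.6, was that of the KCl 6 h pair, and the next was 10.4 for the control 1 h pair.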

Additional observations from a re-analysis of the deposited data

Results flagged for a closer look

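In 2 cases a gene moved in opposite directions at different times of the same stimulus, with both libraries of each group outside the range of the 6 controls. The difference between the times was not tested, and how many of all genes moved in this way was not counted. Both libraries lay outside the control range for 5 to 8 of the 9 genes in each comparison with controls. The share of all tested genes that did so was not counted, so these counts have no background to be read against. Rorb with BDNF was lower at 1 h (log2 fold change −0.32) and higher at 6 h (0.47) and 10 h (0.34). Cux2 with KCl was above the controls at 1 h (0.12, not called) and lower at 6 h (−0.62) and 10 h (−0.81).

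In 3 of 19 sets of control libraries, 1 library stood far from the other 5 by Dixon's criterion, where chance alone gives about 1 in 20. The second control library of 1 h had the highest Sox5 level, 824 normalised counts. The first control library of 10 h had the lowest count at the Cux2 promoter peak, 50.0 scaled counts, and the highest at the Rorb promoter peak, 217.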

How the results depend on the processing

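Of 81 comparisons of a gene between groups, 51 were called, 33 kept their call in each alternative, 18 lost it without 1 library, and 0 of the 51 reversed. The stricter threshold of 0.01 lost 15 calls, controls of the same time 8, no filter 4 and DESeq2 2. TMM scaling, edgeR and both other pseudocounts lost 0. Whether the A and B letters pair the RNA samples could not be decided. The deviations of the A libraries correlated over 0.1 in 13 of 36 pairs of groups (median 0.06, from −0.31 to 0.42). With the letters as a replicate block, called genes rose from 6546 to 6705 of all tested at BDNF 1 h. They also rose in each other comparison of a stimulated group. The replicate block moved the count of called genes in no comparison by over 1.5 times. It lost Rorb in BDNF 1 h against KCl 1 h (−0.28, adjusted p = 0.102) and added Cux1 in BDNF 6 h against KCl 6 h (0.18, adjusted p = 0.0994), both by limma. No paired analysis was possible for ATAC because its columns carry no number.

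Counts of called features depended on the settings as follows. At the stricter threshold, BDNF 1 h called 4 genes and the direct comparison at 10 h 2. There, BDNF called 5, 2 and 2 peaks at the 3 times, KCl 1, 1 and 2, and the direct comparison 2, 0 and 0. With controls of the same time, 2 peaks were called at BDNF 6 h, 2 at KCl 1 h, 2 at KCl 6 h and 4 at KCl 10 h. DESeq2 size factors called 7 peaks at BDNF 10 h and 12 at KCl 10 h, where TMM scaling called 11. DESeq2's own test called 1 peak in the direct comparison at 6 h and 1 at 10 h, and peaks within 10 kb gave 1 at 10 h. Leaving out 1 library gave 4 to 7, 5 to 8 and 5 to 7 genes with BDNF, 4 to 5, 4 to 6 and 4 to 6 with KCl, and 4 to 5, 3 to 5 and 2 to 6 in the direct comparison. For peaks it gave 8 to 15, 1 to 5 and 1 to 5 with BDNF, 0 to 9, 2 to 9 and 2 to 8 with KCl, and 3 to 8, 0 to 1 and 0 to 2 in the direct comparison. The cause of these differences was not tested beyond the fewer samples or peaks of a setting.

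Values that changed sign were all uncalled in the main result. Bcl11b in BDNF 1 h against KCl 1 h was −0.013 with TMM scaling and −0.012 with edgeR, and Foxp2 at BDNF 10 h was 0.037 with controls of the same time. Leaving out 1 library moved Bcl11b in the direct comparison from −0.074 to 0.031 at 6 h and from −0.051 to 0.23 at 10 h. It moved Pou3f2 from −0.14 to 0.53 at 1 h in that comparison. Against controls it moved Tbr1 at BDNF 10 h from −0.018 to 0.10, Foxp2 at BDNF 10 h from −0.11 to 0.067, Pou3f2 at KCl 6 h from −0.052 to 0.017, Rorb at KCl 1 h from −0.081 to 0.017 and at KCl 10 h from −0.097 to 0.17, Sox5 at KCl 1 h from −0.080 to 0.024, and Foxp2 at KCl 1 h from −0.041 to 0.14.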
